A study of Mus musculus with 37 samples.

Results

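Of the 37 lymph node libraries of the series, 10 form the comparison described here. They came from 10 female MMTV-PyMT mice at the time point labelled d105, 4 with the treatment label PLX+PTX+aPD-1_NR (NR) and 6 with the label PLX+PTX, and all their clonotypes were kept. The MMTV-PyMT transgene places the polyoma middle T antigen under the mammary tumor virus promoter, which drives mammary tumors. Both groups received PLX3397 (pexidartinib), a kinase inhibitor of the macrophage growth factor receptor CSF1R, in the chow at 40 mg/kg per day from an age of 80 days. Both also received PTX, the chemotherapy, at 10 mg/kg by vein every 5 days from 85 days. The NR mice in addition received RMP1-14, an antibody against PD-1, an inhibitory receptor of T cells (aPD-1). Its first dose, at 87 days, was 1.0 mg, and doses of 0.5 mg followed at intervals of 5 days. The protocol in the labels names a rat IgG2a isotype as the alternative to aPD-1, and the labels do not say whether the PLX+PTX mice were given it. The labels also leave the suffix NR and the day count d105 without a definition, and 6 mice with the suffix R at d105 were left out of the comparison. NR and PLX+PTX mice therefore differ in the antibody and in whatever NR stands for, and these cannot be told apart.

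The measurement was the rearranged T cell receptor beta (TRB) locus, amplified from genomic DNA of the dissociated lymph node. In each developing T cell the locus joins 1 variable (TRBV), 1 diversity (TRBD) and 1 joining (TRBJ) segment, with bases trimmed and inserted at the junctions. The junction encodes the third complementarity-determining region (CDR3), the part of the chain that faces the peptide, and a cell that divides passes the same rearrangement to all its daughters. Blocking PD-1 is known to release T cells that have met antigen, so a change of single clonotypes, of their size distribution or of segment use is what such libraries can show. Because DNA was read, a clonotype's count follows cells and not the amount of receptor transcript.

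The 10 libraries held 1327206 to 2831566 reads in 50657 to 91867 nucleotide clonotypes. The NR libraries averaged 1603950 reads and the PLX+PTX libraries 2061548, and in all 10 the listed CDR3 were productive. Merging by TRBV, TRBJ and amino acid CDR3 left 463105 clonotypes, of 1002058 in the series. Levels are given in normalised counts, the authors' count rescaled by a factor for each TRBV-TRBJ pair, as a percent of the library or per 1000000 (CPM). These factors ran from 0.206 to 93.0, so 1 read weighs very differently from pair to pair. The number printed in each label's description falls in a lower range for 4 of the PLX+PTX mice and in a higher range for the other 2 and for all 4 NR mice, so comparisons within the higher numbers set 4 mice against 2. NR replicate 1 stood apart from the other 3 NR mice in its V segment use. Segment results are given with and without it, a choice made after its values were seen. Replicates are separate mice, and no label says whether they shared a cage or a litter.

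At the level of single clonotypes, 3 of 8907 tested clonotypes (0.0337%) passed the threshold, and all 3 were lower in NR than in PLX+PTX mice. A clonotype was tested where 5 or more libraries held it, with limma on log2(CPM + 10) and Benjamini-Hochberg adjustment to 0.05. That filter is not even-handed between groups of 4 and 6: a clonotype of all 6 PLX+PTX mice and no NR mouse entered the test, and one of all 4 NR mice and no PLX+PTX mouse could not. The 3 calls entered through the PLX+PTX mice alone, so their shared direction is in part set by the filter. With the filter at 3 libraries, 10 of 29363 clonotypes (0.0341%) passed, 7 of them higher (0.0238%) and 3 lower (0.0102%) in NR, and both sets are described here. The 3 were TRBV4 TRBJ2-7 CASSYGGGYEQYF, TRBV5 TRBJ2-7 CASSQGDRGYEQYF and TRBV4 TRBJ2-7 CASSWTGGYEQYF. TRBJ2-7 is the joining segment they share, and its germline end supplies the residues YEQYF. Each was present in all 6 PLX+PTX libraries. Only 1 read of the 3 together was found in the 4 NR libraries. Where a clonotype had no NR read, the NR group had no spread, and its SE and p depend on the pseudocount. The p values of these 3 calls are therefore no support for a difference, in this fit or in the others given below.

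The nucleotide sequences are shown because the same amino acid CDR3 was reached in different mice in part by different rearrangements. Some forms were shared, by up to 2 libraries for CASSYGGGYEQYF and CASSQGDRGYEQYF and by up to 5 for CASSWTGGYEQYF. Capitals mark bases inserted between the V, D and J matches, and lower case marks bases matched to a segment, all 5′ to 3′ on the coding strand. For each of the 3 clonotypes, 3 or 4 of its forms follow, then the only form of a clonotype found in 9 of the 10 libraries.
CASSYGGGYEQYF, 129 reads in PLX+PTX replicate 2: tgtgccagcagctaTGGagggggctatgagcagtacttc
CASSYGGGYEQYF, 52 reads in PLX+PTX replicate 5: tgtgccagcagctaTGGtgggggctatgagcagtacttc
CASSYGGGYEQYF, 50 reads in PLX+PTX replicate 3: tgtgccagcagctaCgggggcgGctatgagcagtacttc
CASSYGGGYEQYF, 26 reads in PLX+PTX replicate 6: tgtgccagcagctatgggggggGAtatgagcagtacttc
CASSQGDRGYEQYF, 148 reads in PLX+PTX replicate 1: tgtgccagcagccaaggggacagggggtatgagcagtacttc
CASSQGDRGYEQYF, 151 reads in 2 PLX+PTX libraries: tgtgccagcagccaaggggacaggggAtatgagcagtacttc
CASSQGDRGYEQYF, 40 reads in PLX+PTX replicate 5: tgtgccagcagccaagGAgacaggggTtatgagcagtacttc
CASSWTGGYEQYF, 662 reads in 3 PLX+PTX libraries: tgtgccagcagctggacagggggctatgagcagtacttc
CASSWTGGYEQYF, 346 reads in 5 PLX+PTX libraries: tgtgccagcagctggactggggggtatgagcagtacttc
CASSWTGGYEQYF, 155 reads in PLX+PTX replicate 2: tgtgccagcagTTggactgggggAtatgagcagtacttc
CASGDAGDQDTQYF, 11698 reads in 9 libraries: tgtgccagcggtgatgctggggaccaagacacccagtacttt

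TRBV4 TRBJ2-7 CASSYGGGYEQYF had 62, 131, 76, 60, 52 and 26 reads in PLX+PTX replicates 1 to 6, and 0, 1, 0 and 0 reads in NR replicates 1 to 4. In normalised counts these are 71.8, 143.9, 128.4, 94.96, 91.0 and 61.1 CPM against 0, 2.13, 0 and 0 CPM. The lowest PLX+PTX mouse was thus far above the highest NR mouse. The limma difference was -3.32 ± 0.32 (log2 of CPM + 10, SE), with an adjusted p of 0.0030. It was made of 9 nucleotide forms, 7 of them in a single library, with 1 to 3 inserted bases. Over pooled reads the clonotype was 211 times as frequent in PLX+PTX as in NR libraries. Its counting interval was 37.7 to 8358 (exact, 95%). That interval treats reads as independent and leaves out the spread between mice, so it does not measure the difference between groups. The clonotype was also picked for its smallest p.

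TRBV4 TRBJ2-7 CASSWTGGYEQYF had 66, 350, 42, 600, 312 and 148 reads in PLX+PTX replicates 1 to 6 and none in any NR library. Its level ran from 70.9 CPM in replicate 3 to 949.6 CPM in replicate 4, a wide range, and every PLX+PTX mouse was above all NR mice. The PLX+PTX mean of 396 ± 328 CPM (SD, n = 6) was 64.3 times a floor of 3 reads per NR library. That ratio is no lower bound, since the median reads per clonotype were 14 to 23 in the NR libraries. The limma difference was -4.83 ± 0.67 (log2, SE), with an adjusted p of 0.0345. Of its 7 forms, 3 carry no inserted base, and the form with the most libraries was found in 5 of the 6 PLX+PTX mice.

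TRBV5 TRBJ2-7 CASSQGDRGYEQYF had 148, 91, 42, 60, 40 and 60 reads in PLX+PTX replicates 1 to 6 and none in the NR libraries. The PLX+PTX mean of 47.0 ± 17.6 CPM (SD, n = 6) was 17.6 times the floor of 3 reads per NR library, which is no lower bound either. The limma difference was -2.46 ± 0.32 (log2, SE; adjusted p = 0.0302). It had 4 nucleotide forms, all read with TRBD1, whose usual reading supplies the residues DRG in its middle.

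The 3 clonotypes were not private to PLX+PTX mice. In the 6 R mice, which also received aPD-1, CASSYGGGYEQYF was found in 5, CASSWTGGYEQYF in 5 and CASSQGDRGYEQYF in 3. Their mean levels there were 54.3, 97.2 and 14.5 CPM, between those of the NR and the PLX+PTX mice, and the R mice were not tested here. Thinning all 10 libraries to 1327206 reads left each of the 3 in all 6 PLX+PTX libraries, and limma on the thinned reads called none (adjusted p = 0.0555 for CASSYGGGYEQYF and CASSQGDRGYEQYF, 0.206 for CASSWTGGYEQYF). Thinned reads also carry no factor per TRBV-TRBJ pair. In raw reads without thinning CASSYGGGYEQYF and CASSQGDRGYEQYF passed, and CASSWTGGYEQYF did not (adjusted p = 0.185, limma). The calls depended on the fit. Within the higher label numbers the differences were of like size, at -3.52, -4.80 and -2.20 in the order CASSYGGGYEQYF, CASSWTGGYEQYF and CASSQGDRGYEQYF, and none passed there; none passed with the label number as a covariate either. With edgeR's quasi-likelihood test on reads 2 of 8907 clonotypes (0.0225%) passed, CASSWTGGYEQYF among them (adjusted p = 0.0012), while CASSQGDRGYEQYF and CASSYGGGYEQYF did not (adjusted p = 0.985 and 1.00). With DESeq2 35 of 7623 (0.459%) passed, all 3 among them. With all d105 libraries in 1 fit none of the 3 passed (limma, adjusted p = 0.111 to 0.136). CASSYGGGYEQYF passed in each of the 10 limma fits that left out a library, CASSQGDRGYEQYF in 4 and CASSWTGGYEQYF in 3 (adjusted p up to 0.184 and 0.186). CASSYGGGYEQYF was the only call without NR replicate 1, 3 or 4; leaving out PLX+PTX replicate 4 gave 6 calls, all 3 among them.

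**Figure D1:**
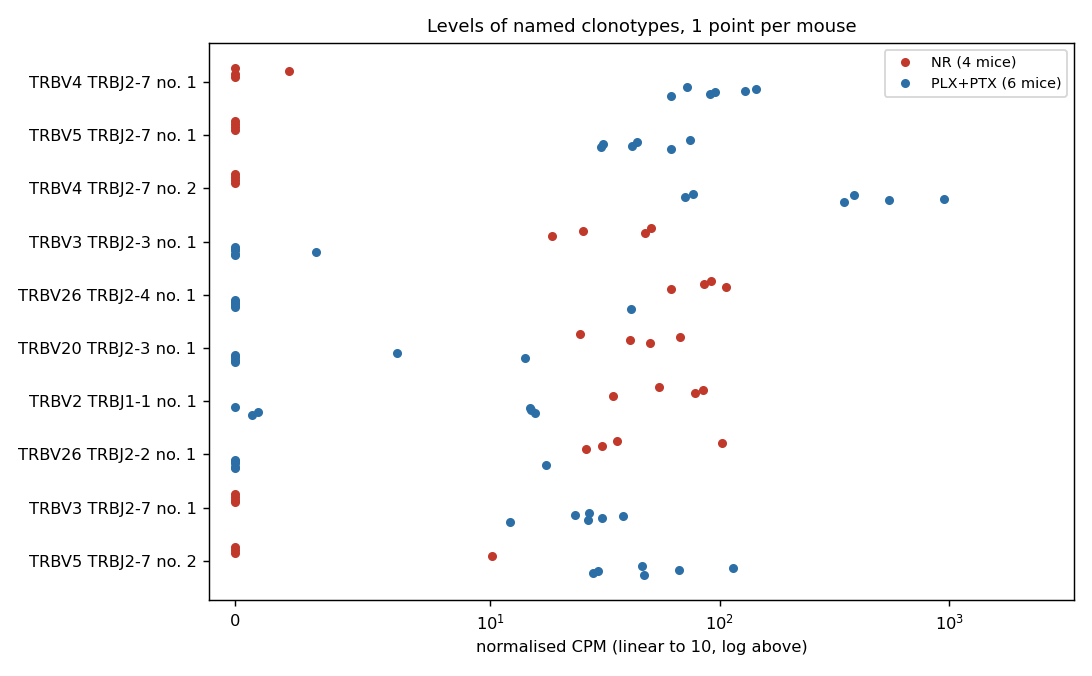
Levels of 10 clonotypes in normalised counts per 1000000, on an axis that is linear to 10 and logarithmic above, with 1 point per mouse. The 3 rows at the top passed the threshold, and their NR points lie at or near 0; from top to bottom the rows are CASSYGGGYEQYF, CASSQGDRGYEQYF, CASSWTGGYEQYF, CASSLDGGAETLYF, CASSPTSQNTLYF, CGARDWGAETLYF, a TRBV2 TRBJ1-1 clonotype, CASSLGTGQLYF, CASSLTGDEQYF and a TRBV5 TRBJ2-7 clonotype.

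Clonotypes higher in NR passed where the filter let those of the 4 NR mice in. Of the 7 that passed with the filter at 3 libraries, 6 were in all 4 NR and in no PLX+PTX library, and these 6 had no test at 5 libraries. TRBV3 TRBJ2-5 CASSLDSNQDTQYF had the smallest p, at 48.3, 48.5, 53.5 and 49.6 CPM in NR replicates 1 to 4 on 16, 12, 13 and 11 reads, a narrow band (limma difference 2.58 ± 0.18, log2, SE; adjusted p = 7.8e-04). TRBV3 TRBJ2-7 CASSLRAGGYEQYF had a mean of 28.02 ± 7.62 CPM (SD, n = 4) on 230 reads in NR (adjusted p = 0.0166, limma). TRBV26 TRBJ1-1 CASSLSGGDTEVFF had 26.0 ± 6.9 CPM on 273 reads (adjusted p = 0.0166, limma), and TRBV1 TRBJ2-7 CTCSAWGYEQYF, which carries the germline cysteine of TRBV1, had 28.1 ± 11.8 CPM on 95 reads (adjusted p = 0.0306, limma). The other 2 of the 6 were clonotypes of 15 residues, of TRBV5 TRBJ2-5 (adjusted p = 0.0306, limma) and of TRBV26 TRBJ2-2 (adjusted p = 0.0479, limma). As each of the 6 was absent from all PLX+PTX libraries, it entered the test only through the NR mice. With no read in PLX+PTX mice that group had no spread, so the SE and p depend on the pseudocount. These p values are therefore no support for a difference. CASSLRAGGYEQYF, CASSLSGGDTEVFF and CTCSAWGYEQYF are named because they were called there, after their values were seen.

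Among the 8907 clonotypes of 5 or more libraries, none passed in the direction of more in NR. At an unadjusted p under 0.05, 225 clonotypes (2.53%) were higher and 232 (2.6%) lower in NR, together 457 of 8907 (5.13%). All 4 NR mice lay above all 6 PLX+PTX mice for 45 clonotypes (0.505%) and below them for 28 (0.314%). Of the 210 regroupings 1 puts the NR mice on top and 1 at the bottom, a share of 0.0048 each for untied values. The 45 are near that share and the 28 below it, so a lack of overlap by itself marks no difference here. Those without overlap described next were picked by p. The smallest p among those higher in NR belonged to TRBV3 TRBJ2-3 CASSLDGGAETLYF. It had 16, 6, 11 and 4 reads in NR replicates 1 to 4 and 1 read in all PLX+PTX libraries together. Its mean was 35.4 ± 15.8 CPM (SD, n = 4) in NR, and the limma difference of 2.05 ± 0.32 had an adjusted p of 0.0956. With the filter at 3 libraries it was the seventh call higher in NR (adjusted p = 0.0416, limma). The NR mice alone sufficed to let it into that fit, so that p is no support for a difference.

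TRBV26 TRBJ2-4 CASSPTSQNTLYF had 20, 14, 17 and 9 reads in the NR mice, and 6 reads in PLX+PTX replicate 6 alone. Levels were 91.6, 85.7, 106.4 and 61.4 CPM in NR against 41.1 CPM in that 1 PLX+PTX mouse, so the groups did not overlap. The limma difference was 2.85 ± 0.49 and the adjusted p was 0.141. None of the 6 R mice had a read of it. It was made of 4 forms with 1 to 5 inserted bases, of which the most widespread was in 3 libraries, NR replicates 1 and 4 and PLX+PTX replicate 6.

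The next 3 by p were TRBV20 TRBJ2-3 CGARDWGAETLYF, a TRBV2 TRBJ1-1 clonotype of 15 residues and TRBV26 TRBJ2-2 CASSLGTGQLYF. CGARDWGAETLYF, in which TRBD2 reads DWG, ranged from 24.6 to 67.1 CPM in NR and from 0 to 14.2 CPM in PLX+PTX mice. The TRBV2 TRBJ1-1 clonotype ranged from 34.3 to 84.5 CPM in NR and from 0 to 15.6 CPM in PLX+PTX mice. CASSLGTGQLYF ranged from 26.1 to 101.8 CPM in NR, and 1 PLX+PTX mouse had 17.6 CPM. Groups did not overlap for any of these, and the adjusted p values of 0.186, 0.294 and 0.294 (limma) missed the threshold. Among those lower in NR, TRBV3 TRBJ2-7 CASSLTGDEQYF had 12.2 to 38.0 CPM in the 6 PLX+PTX mice and no read in NR (adjusted p = 0.141, limma). It passed with the filter at 3 libraries (adjusted p = 0.0479, limma), in raw reads (adjusted p = 0.0499, limma) and with DESeq2 (adjusted p = 0.0031). Only the PLX+PTX mice let it into these fits, and NR had no spread, so these p values are no support for a difference. A TRBV5 TRBJ2-7 clonotype of 15 residues had 27.99 to 114.6 CPM in PLX+PTX mice and 10.2 CPM in 1 NR mouse (adjusted p = 0.153, limma).

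Presence and absence were counted over the 15500 clonotypes that 4 or more libraries held. In all 4 NR and in no PLX+PTX library were 32 (0.206%), and in all 6 PLX+PTX and no NR library were 11 (0.071%). Exactly 4 libraries held 6593 clonotypes, and for each of these 1 of 210 possible placements is the 4 NR mice alone. Exactly 6 libraries held 2166, for which the PLX+PTX mice alone are likewise 1 placement of 210. The 2 counts thus start from unlike numbers, and neither was tested for an excess. By mean level the first of the 32 was a TRBV5 TRBJ2-5 clonotype of 15 residues, at 431.3, 154.0, 58.8 and 64.2 CPM in NR replicates 1 to 4. Those levels rest on 30, 8, 3 and 3 reads, since the factor of TRBV5 TRBJ2-5 is 63.1. The next by mean level was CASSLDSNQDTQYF, whose values are given above. A TRBV26 TRBJ2-2 clonotype of 15 residues had 220, 75, 31 and 97 reads in NR replicates 1 to 4, or 16.2 to 83.8 CPM. Of these 3, the R mice held the TRBV5 clonotype in 3, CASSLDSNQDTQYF in 1 and the TRBV26 clonotype in 1 of 6 libraries.

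Most rearrangements belonged to 1 mouse. Of the 463105 clonotypes, 392282 (84.7%) were found in a single library, and 368 were found in all 10. Clonotypes found in a single library held 53.6 ± 0.4% (SD, n = 4) of normalised counts in NR and 53.1 ± 1.3% (SD, n = 6) in PLX+PTX mice. The 368 clonotypes of all 10 libraries held 2.34 ± 0.05% in NR and 2.35 ± 0.25% in PLX+PTX mice. The mean Morisita-Horn index, a measure of overlap that weighs clonotypes by size, was 0.219 for pairs of NR mice, 0.217 for pairs of PLX+PTX mice and 0.216 between the groups. The indices within and between groups differed by less than the regrouped mice did (difference 0.0012, exact permutation p = 0.895, 2-sided over 210 regroupings).

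Of the 5 clonotypes with the highest mean level among those of all 10 libraries, 3 were short receptors of TRBV4 TRBJ2-7 and 2 were of TRBV5 TRBJ2-5. TRBV4 TRBJ2-7 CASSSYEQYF, which can be formed with no inserted base, had 1366, 1674, 1323 and 2273 CPM in NR replicates 1 to 4, a mean of 1659 ± 438 (SD). In PLX+PTX mice it ran from 763 to 2017 CPM with a mean of 1252 ± 460 (SD, n = 6), and the ranges overlapped (limma difference 0.44 ± 0.36, adjusted p = 0.969). TRBV4 TRBJ2-7 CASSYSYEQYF had a mean of 897 ± 233 CPM in NR and 768 ± 315 CPM in PLX+PTX mice. TRBV4 TRBJ2-7 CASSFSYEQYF spread far more among NR mice, from 129 CPM in replicate 2 to 1685 CPM in replicate 4, against 657 to 1781 CPM in PLX+PTX mice. Its limma difference was -1.42 ± 0.64, with an unadjusted p of 0.0462 and an adjusted p of 0.964.

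Of the public clonotypes of TRBV5, one of 15 residues with TRBJ2-5, which carries the TRBD2 reading DWG, ran from 38.4 to 648.0 CPM in NR and from 305.6 to 793.2 CPM in PLX+PTX mice. TRBV5 TRBJ2-5 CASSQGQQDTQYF reached 2660 CPM in NR replicate 1, on 185 reads, against 58.8 to 299.7 CPM in the other 3 NR mice. TRBV5 TRBJ2-7 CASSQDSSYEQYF was nearly level, at 240 ± 42 CPM (SD, n = 4) in NR and 246 ± 94 CPM (SD, n = 6) in PLX+PTX mice. TRBV26 TRBJ2-7 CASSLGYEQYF lay at 116.2, 118.3, 117.7 and 106.2 CPM in NR replicates 1 to 4, a narrow band inside the PLX+PTX range of 34.3 to 314.8 CPM (limma difference -0.58 ± 0.52, adjusted p = 0.972). It was reached by 10 nucleotide forms, 5 of them in a single library.

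TRBV13-2 belongs to the block of V segments that FVB/N mice are known to lack; the labels give FVBN as the genotype of the untreated group of the series and only MMTV-PyMT for these mice. Reads of that block were present in all 10 libraries. They made up 0.360, 0.147, 0.0558 and 0.215% of reads in NR replicates 1 to 4, and 0.0171, 0.0981, 0.0911, 0.0459, 0.0239 and 0.0241% in PLX+PTX replicates 1 to 6. The means were 0.195 ± 0.128% (SD, n = 4) and 0.0501 ± 0.0359% (SD, n = 6), and the ranges overlapped (exact permutation p = 0.0143, 2-sided over 210 regroupings, unadjusted). A single sequence, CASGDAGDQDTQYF with TRBV13-2 and TRBJ2-5, made up 60.7% of these reads over the 10 libraries. It had 3941, 1862, 721 and 1592 reads in NR replicates 1 to 4 and 264, 1751, 927, 545, 0 and 95 in PLX+PTX replicates 1 to 6. In normalised counts that is 390 ± 192 CPM (SD, n = 4) against 82.0 ± 79.0 CPM (SD, n = 6). The limma difference of 2.60 ± 0.79 had an unadjusted p of 0.0065 and an adjusted p of 0.646. With edgeR's quasi-likelihood test on reads it passed, at an adjusted p of 0.0030, and with DESeq2 it did not (adjusted p = 1.00). It was the same nucleotide sequence in all 9 libraries, with no inserted base, and had no other form. Of the public clonotypes above, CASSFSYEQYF, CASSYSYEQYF, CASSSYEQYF and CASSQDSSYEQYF also had a form in 9 or 10 libraries, each among 3 to 8 forms. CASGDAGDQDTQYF was also present in all 6 R libraries, at up to 1702 CPM, and its origin was not tested.

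In segment use, 0 of 24 segments (0.0%) were called by limma on log2(percent + 0.01). At an unadjusted p under 0.05 stood 2 (8.33%), of which 1 (4.17%) was higher and 1 (4.17%) lower in NR. Over all 24 the median difference was 0.02 on the log2 scale, with 13 above 0 and 11 below. TRBV19 was the segment furthest above 0, and TRBV5 had the smallest p. TRBV19 is used by many mucosal-associated invariant T cells and is recognised by some mammary tumor virus superantigens. TRBV19 held 3.56, 4.92, 4.58 and 4.86% of normalised counts in NR replicates 1 to 4, against 4.22, 4.03, 3.81, 3.31, 2.67 and 3.40% in PLX+PTX replicates 1 to 6. NR replicates 2, 3 and 4 lay above every PLX+PTX mouse and replicate 1 lay among them. The limma difference was 0.33 ± 0.14 (log2, SE; unadjusted p = 0.0356, adjusted p = 0.428).

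TRBV5 held 15.9, 14.2, 15.9 and 14.7% in NR replicates 1 to 4 and 16.8, 15.2, 16.6, 17.4, 17.2 and 16.5% in PLX+PTX replicates 1 to 6. Only PLX+PTX replicate 2 lay within the NR range. The limma difference was -0.13 ± 0.05 (log2, SE; unadjusted p = 0.0327, adjusted p = 0.428). Within the higher label numbers the differences were 0.32 for TRBV19 and -0.16 for TRBV5, with an adjusted p of 0.730 for each (limma).

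NR replicate 1 differed from the other NR mice in TRBV26 and TRBV24. TRBV26, another superantigen-binding segment, held 14.4% in it and 10.2, 10.4 and 10.3% in NR replicates 2 to 4, against 11.2 to 13.2% in PLX+PTX mice. TRBV24 held 6.11% in it and 8.28 to 8.52% in the others, against 6.94 to 8.53% in PLX+PTX mice. It was also at one end of the NR range for TRBJ2-7, at 26.0% against 31.2 to 33.2%, and for TRBJ2-3, at 11.2% against 7.49 to 8.58%. Without this library 0 segments passed and 9 had an unadjusted p under 0.05 (limma), against 0 to 2 with any other library left out. TRBV26 then stood at -0.26, TRBV24 at 0.20, TRBV19 at 0.43 and TRBV5 at -0.15 (log2), each with an adjusted p of 0.0563 (limma). TRBJ2-7 stood at 0.14, TRBJ2-2 at 0.15, TRBJ2-3 at -0.19 and TRBJ2-5 at -0.16 with the same adjusted p.

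**Figure D2:**
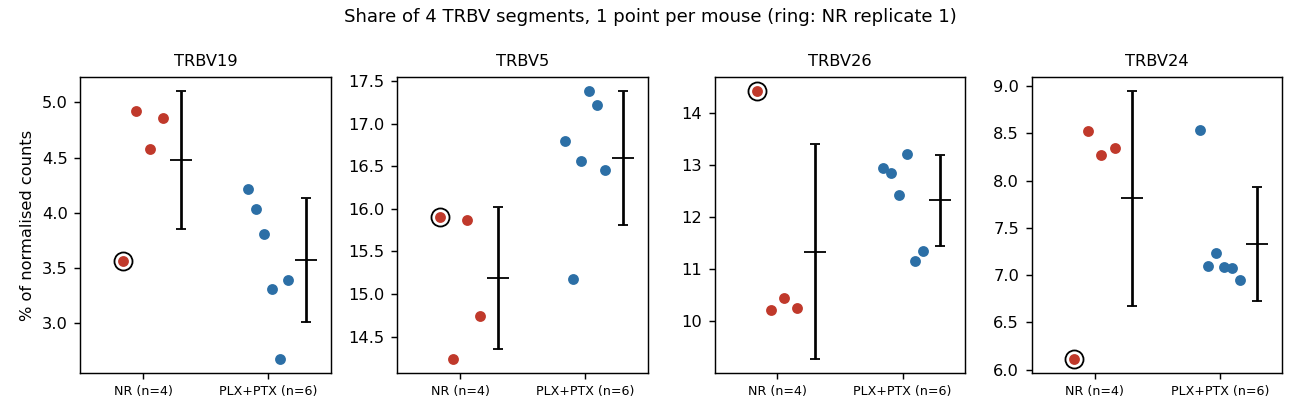
Percent of normalised counts held by TRBV19, TRBV5, TRBV26 and TRBV24, with 1 point per mouse, the group mean and SD in black and a ring around NR replicate 1. The ringed mouse is the highest NR mouse for TRBV26, at 14.4%, and the lowest for TRBV24, at 6.11%; axes do not start at 0.

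**Figure D3:**
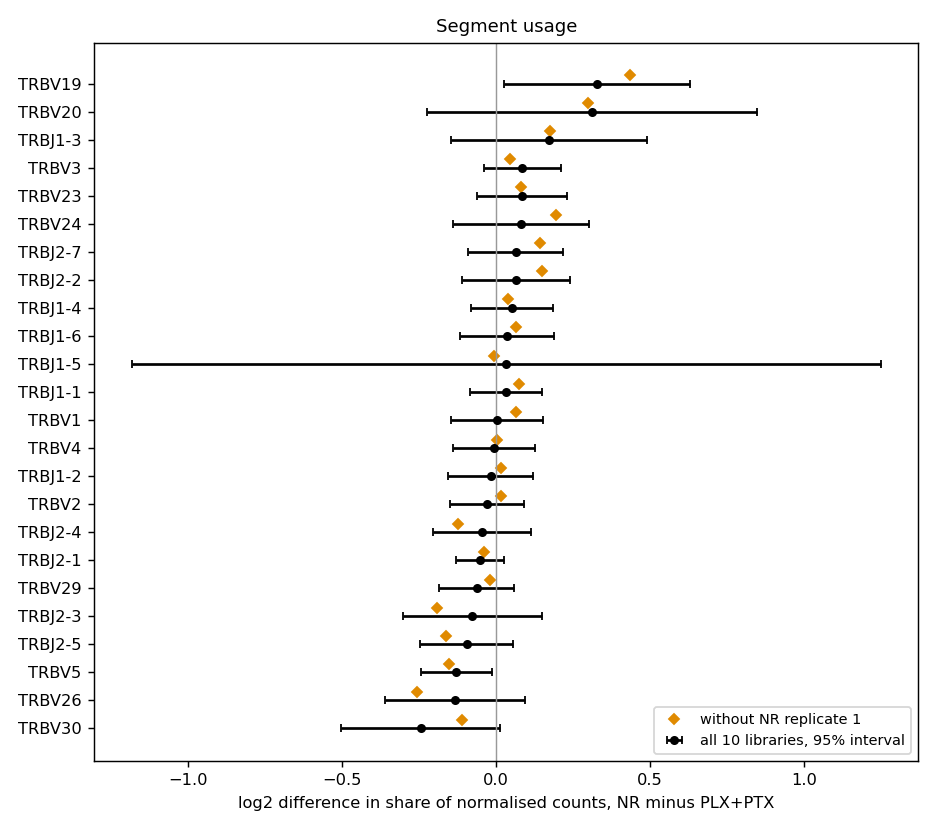
Difference in log2 share of normalised counts (NR minus PLX+PTX) for the 24 tested segments. Black points and bars give the limma estimate over 10 libraries with its unadjusted 95% interval, and orange diamonds the estimate without NR replicate 1; the intervals of TRBV19 and TRBV5 leave out 0, and neither passed after adjustment.

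The remaining segments lay closer to 0 or spread more widely between mice. Of the superantigen segments, TRBV1 stood at 0.00 and TRBV29 at -0.06 beside TRBV19 and TRBV26, and 0 of these 4 passed. TRBV1 and TRBV29 also serve subsets of natural killer T cells; they held 7.00 ± 0.66% and 3.31 ± 0.20% in NR, and 6.97 ± 0.37% and 3.45 ± 0.17% in PLX+PTX mice (SD, n = 4 and 6). TRBV20 held 1.93 to 2.71% in NR and 0.95 to 2.73% in PLX+PTX mice (0.31 ± 0.24, log2; adjusted p = 0.603, limma). TRBV30 had the third smallest p, with 0.30, 0.42, 0.40 and 0.47% in NR and 0.43 to 0.54% in PLX+PTX mice (-0.24 ± 0.12, adjusted p = 0.492, limma). TRBV3 held 16.9 ± 1.4% in NR and 15.9 ± 0.5% in PLX+PTX mice, and TRBV4, the most used after the authors' factors, held 20.6 ± 1.4% and 20.7 ± 1.2%. In deposited reads TRBV4 averaged 7.58 and 7.77%, and TRBV24 held more, at 18.5% in each group. Of the joining segments, 0 of 6 in the TRBJ1 cluster and 0 of 6 in the TRBJ2 cluster passed, with median differences of 0.04 and -0.05. TRBJ2-1 was the joining segment with the smallest p, at 9.78 ± 0.27% in NR and 10.1 ± 0.2% in PLX+PTX mice.

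Of the TRBV-TRBJ pairs with a mean share of at least 0.1%, 0 (0.0%) passed and 9 (8.57%) had an unadjusted p under 0.05, with 7 (6.67%) higher and 2 (1.9%) lower in NR. All 10 tested pairs of TRBV19 lay above 0, from 0.16 to 0.52 with a median of 0.31, and 4 of them had a p under 0.05; the median of all tested pairs was 0.02. The pairs of 1 segment share its reads and are not independent. TRBV19 TRBJ1-3 held 0.106, 0.160, 0.118 and 0.152% in NR mice and 0.072 to 0.135% in PLX+PTX mice (0.52 ± 0.17, adjusted p = 0.359, limma). Of the 11 pairs of TRBV5, 9 lay below 0. TRBV5 TRBJ2-1 held 1.48, 1.37, 1.58 and 1.45% in NR and 1.92, 1.72, 1.64, 1.78, 1.75 and 1.71% in PLX+PTX replicates 1 to 6. Its groups did not overlap, as in 2 of the tested pairs (1.9%), and the difference was -0.25 ± 0.08 (adjusted p = 0.359, limma). The other such pair was TRBV24 TRBJ1-4, at 0.226 to 0.242% in NR and 0.189 to 0.223% in PLX+PTX mice.

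Without NR replicate 1, a library singled out after its values were seen, 4 pairs passed. With any other library left out instead, 0 pairs passed. TRBV19 TRBJ2-7 (0.61 ± 0.11, adjusted p = 0.0207, limma) and TRBV19 TRBJ2-2 (0.63 ± 0.13, adjusted p = 0.0278, limma) were higher in the 3 remaining NR mice. TRBV26 TRBJ2-3 (-1.07 ± 0.23, adjusted p = 0.0301, limma) and TRBV5 TRBJ2-4 (-0.47 ± 0.11, adjusted p = 0.0400, limma) were lower. TRBV26 TRBJ2-3 has a factor of 75.6 and had 10616 reads over the 10 libraries, so each read weighs heavily in its share.

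The size distribution of clonotypes overlapped between the groups, and 0 of 6 measures passed. For these measures, and for the leading clonotype of each library, a clonotype is a nucleotide sequence and its forms are not merged. Clonality, which is 0 when all clonotypes are equally abundant and 1 when 1 clonotype holds all counts, was 0.0647, 0.0501, 0.0529 and 0.0547 in NR replicates 1 to 4. In PLX+PTX replicates 1 to 6 it was 0.0594, 0.0674, 0.0590, 0.0581, 0.0557 and 0.0554. NR replicates 2, 3 and 4 lay below every PLX+PTX mouse and replicate 1 was above 5 of the 6. The means of 0.0556 ± 0.0063 and 0.0592 ± 0.0044 (SD) differed by less than the spread between mice (exact permutation p = 0.329, 2-sided, adjusted p = 0.657 over 6 measures; smallest possible p 0.0048).

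Richness, counted once every library had been thinned to 1327206 reads, was 60618 ± 12172 in NR and 62055 ± 13702 in PLX+PTX mice (SD, n = 4 and 6; exact permutation p = 0.867). The 10 most abundant clonotypes held 1.14, 0.743, 0.653 and 0.815% of normalised counts in NR replicates 1 to 4 and 0.728 to 1.22% in PLX+PTX mice (exact permutation p = 0.310). Clonotypes of at least 0.1% held 0.503, 0.226, 0 and 0.298% in NR replicates 1 to 4. They held 0.289, 0.517, 0.685, 0.379, 0.244 and 0.524% in PLX+PTX replicates 1 to 6 (means 0.257 ± 0.208 and 0.440 ± 0.166%, SD; exact permutation p = 0.152, adjusted p = 0.657). Such clonotypes numbered 0 to 2 per NR library and 2 to 4 per PLX+PTX library. In deposited reads without the factors the sign of this difference turned (0.0763 percentage points higher in NR). Merged by amino acid, such clonotypes held 0.659, 0.288, 0.132 and 0.396% in NR replicates 1 to 4, with means of 0.369 ± 0.221% in NR and 0.532 ± 0.159% in PLX+PTX mice (SD, n = 4 and 6; exact permutation p = 0.219). The 100 most abundant held 3.18 ± 0.70% and 3.39 ± 0.26% (exact permutation p = 0.505), and each amino acid clonotype had 1.09 nucleotide forms on average in both groups.

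The most abundant nucleotide clonotype differed between most mice. In NR replicate 1 it was TRBV5 TRBJ2-5 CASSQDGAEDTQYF by normalised counts, with 0.256%, on 178 reads or 0.01003% of the library (95% Wilson interval 0.0087 to 0.0116). In deposited reads TRBV26 TRBJ1-2 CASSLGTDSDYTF led the same library with 4114 reads, or 0.232% (0.225 to 0.239). The first was TRBV4 TRBJ2-7 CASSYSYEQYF in NR replicate 2, TRBV4 TRBJ2-7 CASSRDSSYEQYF in replicate 3 and TRBV4 TRBJ2-7 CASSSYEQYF in replicate 4, at 0.121, 0.0975 and 0.167%. Among PLX+PTX mice TRBV4 TRBJ2-7 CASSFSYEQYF led replicates 1 and 2, at 0.178 and 0.177%, and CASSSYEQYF led replicate 5. Replicate 3 was led by TRBV26 TRBJ2-3 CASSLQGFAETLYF at 0.556%. That share rests on 302 reads, or 0.0167% of the library, since the factor of this pair is 75.6. In deposited reads TRBV24 TRBJ2-5 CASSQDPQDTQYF led the same library with 1415 reads. Replicate 4 was led by a TRBV4 TRBJ2-7 clonotype at 0.226% and replicate 6 by another of the same pair at 0.282%, both of 15 residues. The leaders of replicates 4 and 6 carry the TRBD2 reading DWG. Merged by amino acid, the leader was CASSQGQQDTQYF in NR replicate 1, at 0.266%, and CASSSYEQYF in NR replicates 2 to 4, at 0.167, 0.132 and 0.227%. The PLX+PTX mice kept the same leaders when merged.

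**Figure D4:**
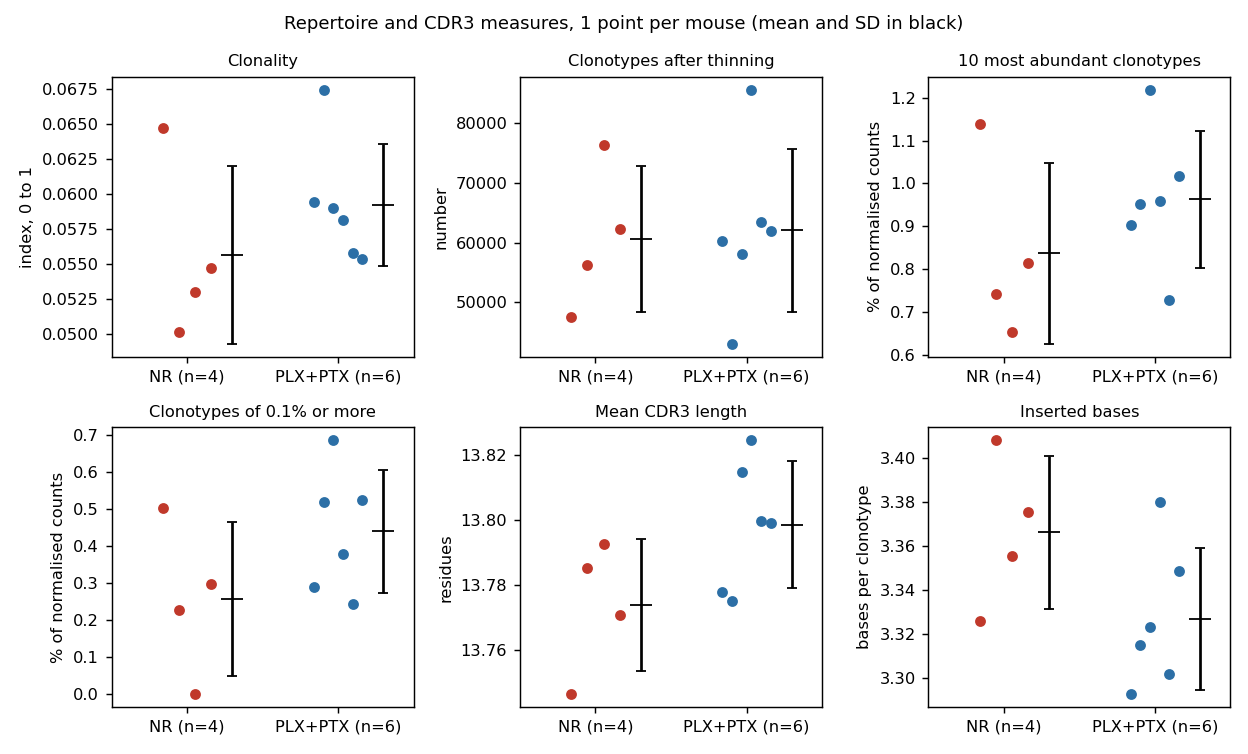
Clonality, clonotypes after thinning to 1327206 reads, percent in the 10 most abundant clonotypes, percent in clonotypes of 0.1% or more, mean CDR3 length and mean inserted bases, with 1 point per mouse and the group mean and SD in black. The groups overlap in every panel; axes other than that of clonotypes of 0.1% or more do not start at 0.

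CDR3 properties also overlapped. Mean CDR3 length, ends included, was 13.746, 13.785, 13.793 and 13.771 residues in NR replicates 1 to 4 and 13.775 to 13.82 in PLX+PTX mice. The means of 13.774 ± 0.020 and 13.799 ± 0.020 residues (SD) gave an exact permutation p of 0.105 and an adjusted p of 0.400 over 8 features. CDR3 of at least 17 residues held 2.05 ± 0.02% in NR and 2.13 ± 0.07% in PLX+PTX mice (exact permutation p = 0.0857). Of the single lengths, that of 17 residues was picked out after its values were seen: it held 1.60, 1.66, 1.62 and 1.64% in NR replicates 1 to 4 and 1.76, 1.68, 1.69, 1.75, 1.76 and 1.82% in PLX+PTX replicates 1 to 6, with no overlap and no test of its own. At every other length from 8 to 20 residues the groups overlapped. CDR3 of at most 11 residues held 5.85 ± 0.28% and 5.66 ± 0.25%. Hydrophobic residues at both positions 6 and 7, a feature that favours self-reactivity, were found in 1.56 ± 0.08% and 1.52 ± 0.11%. A cysteine past position 1 was found in 7.14 ± 0.63% and 7.10 ± 0.37%; TRBV1, whose germline end encodes one, held 97.1 to 98.3% of these in the 10 libraries. Outside TRBV1 the shares were 0.169 ± 0.028% and 0.157 ± 0.013%.

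The usual TRBD1 readings, GQG or DRG, were found in 5.30 ± 0.34% in NR and 5.53 ± 0.21% in PLX+PTX mice (exact permutation p = 0.257). The TRBD2 readings, DWG or GLG, were found in 8.86 ± 0.19% and 9.19 ± 0.40% (exact permutation p = 0.171, adjusted p = 0.400). When each clonotype counted once, TRBD2 readings made up 8.99% in NR and 9.41% in PLX+PTX mice, the groups did not overlap, and the exact permutation p was 0.0190 (adjusted p = 0.152). TRBJ1 segments held 15.5 ± 0.9% and 15.04 ± 0.4%. Inserted bases averaged 3.37 ± 0.03 and 3.33 ± 0.03 per rearrangement (exact permutation p = 0.105), and 12.3 ± 0.6% and 12.6 ± 0.4% of counts were in rearrangements with none. None of these passed after adjustment.

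**Figure D5:**
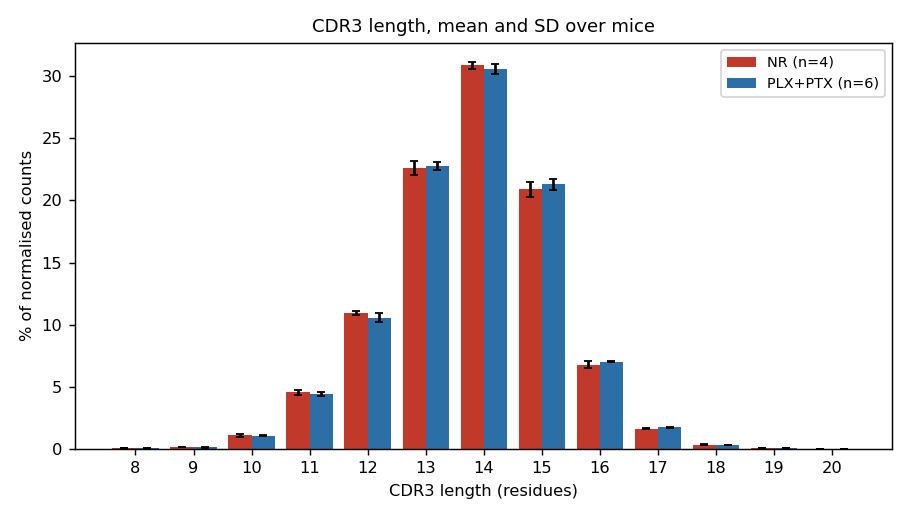
Percent of normalised counts by CDR3 length in residues, as mean and SD over 4 NR and 6 PLX+PTX mice. The bars of both groups peak at 14 residues. At 17 residues all 4 NR mice lie below all 6 PLX+PTX mice, at 1.60 to 1.66% against 1.68 to 1.82%. That length was picked out after its values were seen and was not tested, and the groups overlap at every other length shown.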

How the data were processed

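Lymph node DNA of 10 MMTV-PyMT mice (4 NR, 6 PLX+PTX, d105) was amplified over the TRB locus, and samples were grouped by the treatment and time labels. Members, lists and named items were chosen with earlier results of these data known. Per the file headers, the tables have the columns of a MiXCR clone export; tool version, genome build and origin of the factors: not given in the sources used here. The deposited clone count is a count of reads per nucleotide clonotype. Scores in the deposited tables are the nb clone count and the normalized one: the authors multiplied the count by a factor per TRBV-TRBJ pair and rounded. Over 122 pairs with at least 1000 reads in 2 or more libraries, this ratio of score to count had a median spread between libraries of 0.0575% and at most 3.59%. The factors leave depth unscaled.

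Shares of 24 segments and 105 TRBV-TRBJ pairs with a mean of at least 0.1% were tested as log2(percent + 0.01), and 8907 merged clonotypes found in at least 5 of 10 libraries as log2(CPM + 10). The fits used limma 3.58.1 in R 4.3.3 over the 10 libraries, with Benjamini-Hochberg adjustment per kind at 0.05. A log2 fold change on this scale understates low clonotypes, and where a group has no read it depends on the pseudocount and is no bound. Single values per mouse were compared by exact 2-sided permutation over 210 regroupings (smallest p 0.0048), or 15 within the higher label numbers (smallest p 0.0667), adjusted within families of 6 repertoire measures and 8 CDR3 features. Richness followed thinning to 1327206 reads. Alternatives were edgeR 4.0.16, DESeq2 1.42.0, raw reads, other pseudocounts and filters, size measures merged by amino acid, all d105 libraries in 1 fit, the label number, and leaving out each library. Limma on shared clonotypes and on segments and the permutation test of group means were tried on simulated data. The pair fits, the overlap test, edgeR and DESeq2 were not. Named were the 6 segments with the smallest p and those of the lists, the 3 pairs and the 5 clonotypes with the smallest p per direction, and the public and leading clonotypes. Reads come from PCR without molecular identifiers, so intervals and floors (3 reads per library) cover counting error only. No genome coordinates are given.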

Additional observations from a re-analysis of the deposited data

Results flagged for a closer look

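The 24 segments and 17 measures were examined in each group of mice, which gave 82 sets of values. Of these sets, 6 held a mouse far from the others of its group by Dixon's criterion at 95%. Chance alone marks about 1 in 20 such sets, and the sets come from the same mice and are not independent. NR replicate 1 had a TRBV26 share of 14.4% of normalised counts, against 10.2 to 10.4% in the other NR mice, and a TRBV24 share of 6.11%, against 8.28 to 8.52%. PLX+PTX replicate 1 had a TRBV24 share of 8.53%, against 6.94 to 7.24% in the other PLX+PTX mice, and a TRBJ2-2 share of 5.22%, against 5.51 to 5.68%. PLX+PTX replicate 2 had a clonality of 0.0674, against 0.0554 to 0.0594. In PLX+PTX replicate 5 the 100 most abundant clonotypes held 2.88%, against 3.44 to 3.60%. What set these mice apart was not tested.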

How the results depend on the processing

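The 3 clonotype calls became 0 with a pseudocount of 100 CPM, with clonotypes found in at least 8 libraries, with all d105 libraries in 1 fit, with the label number as a covariate, within the higher label numbers and with reads thinned to 1327206 (an alternative chosen after seeing the data). They became 10 with clonotypes found in at least 3 libraries (7 higher and 3 lower in NR, 2 of the 3 main calls among them), 8 in raw reads (all lower, 2 of the 3 among them) and 35 of 7623 with DESeq2, and stood at 2 with edgeR and with a pseudocount of 1 CPM. Leaving out each library gave 1 to 6 calls, with 1 without NR replicates 1, 3 or 4 and 6 without PLX+PTX replicate 4; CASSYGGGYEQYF was called in all 10 such fits. The 0 segment calls became 2 with each clonotype counted once (TRBV20 higher, TRBV5 lower in NR) and 1 with DESeq2 (TRBV19). Pair calls ran from 0 to 4 when a library was left out.

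No paired analysis was possible because the labels give the mice of the 2 groups no shared replicate number. No repertoire measure or CDR3 feature passed under any alternative, among them clonotypes merged by amino acid (chosen after seeing the data), which kept the direction of clonality, of the 10 and 100 most abundant and of clonotypes of 0.1%. NR minus PLX+PTX turned sign in raw reads for the 10 most abundant clonotypes (0.0245), clonotypes of 0.1% (0.0763), short CDR3 (-0.0798), an inner cysteine (-0.429), the same outside TRBV1 (-0.0135) and TRBJ1 (-0.277). In thinned reads, which also carry no factors, it turned for clonality (0.000868), the 10 most abundant (0.0263) and clonotypes of 0.1% (0.0775). With each clonotype once it turned for an inner cysteine (-0.412, outside TRBV1 -0.0068), and within the higher label numbers for nucleotide forms (-0.0057) and rearrangements with no inserted base (0.0916).

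Sign changes of log2 differences, none of them called, were as follows. In raw reads, TRBJ1-1 was -0.021, TRBV1 -0.041 and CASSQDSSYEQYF -0.028 (thinned reads -0.0077). With each clonotype once, TRBJ1-5 was -0.049, TRBJ2-3 0.038, TRBJ2-5 0.0026, TRBJ2-7 -0.010 and TRBV1 -0.038. TRBV1 was -0.025 in nb clone counts, and TRBJ1-5 was -0.054 with a pseudocount of 0.1%. With edgeR and DESeq2, TRBJ1-5 was -0.23 and -0.21, TRBJ2-3 0.023 and 0.031, TRBJ2-5 0.0084 and 0.017, TRBV1 -0.011 and -0.0021, and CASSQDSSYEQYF -0.089 with each; TRBV4 was 0.0022 with DESeq2. With the label number as a covariate and within the higher numbers, TRBJ1-2 was 0.031, TRBV4 0.024 and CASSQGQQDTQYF -0.15. Leaving out each library gave ranges across 0 for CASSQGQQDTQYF (-0.71 to 1.05), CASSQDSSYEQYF (-0.12 to 0.19), TRBJ1-1 (-0.012 to 0.077), TRBJ1-2 (-0.054 to 0.018), TRBJ1-5 (-0.29 to 0.25), TRBJ1-6 (-0.0019 to 0.075), TRBJ2-2 (-0.0096 to 0.15), TRBV1 (-0.032 to 0.066), TRBV2 (-0.073 to 0.017) and TRBV4 (-0.050 to 0.026). It did so also for richness (-6701 to 3279), nucleotide forms (-0.0046 to 0.0060), an inner cysteine (-0.121 to 0.322 percentage points) and overlap (-0.0042 to 0.0058). Depth limits single clonotypes: the 3 reads of the floor stand for 1.06 to 2.26 CPM of deposited reads.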
